A study of Mus musculus with 24 samples.

Results

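LCL161 was given to tumor-bearing mice, and its effect on RNA in spleen cells sorted as CD45+CD8+ was set against its effect in spleen cells sorted as CD45+CD4+. The quantity reported is the log2 fold change of LCL161 over vehicle in CD8 minus the same fold change in CD4, called the difference of effects below. It was formed from the 12 spleen libraries among the 24 of the series, in 4 groups of 3, and the groups were taken from the sample labels without use of any measured value. All mice were TCRα-/-, so every group, vehicle included, lacked a working alpha chain gene, and no wild-type group was analysed here. All carried pancreatic tumors grown from implanted M8 organoids. The treated mice received LCL161 by mouth at 75 mg/kg from day 4, once every 3 days for 3 doses, and tissue was collected on day 12. The labels give no age for the mice. The labels do not say that the 3 libraries of a group came from separate mice. The p-values therefore measure only the spread between libraries within groups, pooled over all 24 libraries, tumor included.

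LCL161 imitates the N-terminus of SMAC, a mitochondrial protein that binds inhibitor of apoptosis proteins. The cellular IAPs cIAP1 and cIAP2, encoded by Birc2 and Birc3, are ubiquitin ligases that keep the kinase NIK (Map3k14) at a low level. When they are lost, NIK accumulates, p100 (Nfkb2) is processed to p52, and p52 enters the nucleus with RelB as the alternative NF-kB pathway, which in T cells adds to costimulation. CD4 and CD8 also mark cells other than conventional T cells in mouse spleen. Cross-presenting dendritic cells carry CD8 alpha homodimers, and other dendritic cells and plasmacytoid dendritic cells carry CD4, so a sort on CD45 with CD4 or CD8 can hold them.

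The spleen libraries held 18.2 to 23.5 × 1e6 counts each. Levels are given as CPM (scaled to 1e6 counts per library), in the order of replicates 1, 2 and 3, and differences as log2 values ± SE. Tests used the quasi-likelihood method of edgeR, and p-values were adjusted over all 20174 genes tested. Cd8a read 622, 584 and 590.4 CPM in CD8 vehicle and 623, 565 and 776 in CD8 LCL161, against at most 3.98 in the CD4 libraries. Cd4 ran from 860 to 1428 CPM in the CD4 libraries and from 7.07 to 13.7 in the CD8 ones. Trac, the constant region of the alpha chain gene disrupted in these mice, still gave 293, 573 and 119 CPM in CD4 vehicle, 1082, 758 and 353 in CD4 LCL161 and 9.30 to 21.1 in the 6 CD8 libraries. The labels do not say which part of the gene was removed, so these reads do not check the genotype. CD4 vehicle replicate 2 was low for gamma delta receptor, plasmacytoid and cross-presenting dendritic transcripts, and CD4 LCL161 replicate 3 was high for erythroid and neutrophil transcripts, with the values given beside the results they touch.

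The LCL161 effect differed between the populations for 59 genes, and 45 of these were genes that fell in CD8 without a called effect in CD4. The difference of effects lay above 0 for 12 of the 59 and below 0 for 47. As a background, 0.292% of all genes tested passed (0.0595% above 0 and 0.233% below 0), and an unadjusted p under 0.05 was reached by 1118 genes above 0 (5.54%) and 1318 below 0 (6.53%). The median difference was 2.37 over the 12 (2.18 with the gene that had no counts in a group set at 3 counts per library), -1.60 over the 47 and 0.04 over all genes tested. LCL161 changed 1670 genes in CD8 at the same threshold (8.28%, with 4.1% higher and 4.18% lower). In CD4 it changed 87 (0.431%, with 0.238% higher and 0.193% lower). At an unadjusted p under 0.05 by edgeR the counts were 5038 in CD8 and 3209 in CD4. The chi-square per gene between replicates ran from 30.45 to 134.9 in CD4 and from 15.34 to 62.56 in CD8. The test used a pooled spread for both, so these counts do not compare the sizes of the 2 effects. In CD8 the effect was negative for all 47 genes with a negative difference. The CD8 vehicle and LCL161 libraries stood apart for all 47, as they did for 38.9% of all genes tested. The 47 were picked from these same libraries by their difference, which favors negative CD8 effects and groups that stand apart. In CD4 the effect of those 47 was above 0 for 35 and within 0.5 of 0 for 37, and vehicle and LCL161 libraries stood apart for 15 of the 47, against 14.6% of all genes tested. The CD8 effect passed the threshold alone for 45 of them, and the CD4 effect alone for 1, Arc. The 12 genes above 0 split evenly, with 6 that passed in CD8 alone and 6 in CD4 alone.

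The number of genes called rested on single libraries. Without CD8 vehicle replicate 1, 2 or 3 the counts were 0, 0 and 6, and without CD8 LCL161 replicate 1, 2 or 3 they were 314, 28 and 1. Leaving out CD4 vehicle replicate 1, 2 or 3 gave 16, 40 and 11. Leaving out CD4 LCL161 replicate 1, 2 or 3 gave 34, 58 and 207. No gene of the 59 therefore passed in all of these fits. With only the 12 spleen libraries filtered and fitted, 18794 genes were tested and 3 passed, of which 2 were among the 59. DESeq2 called 511 genes, including all 59, and limma's voom with sample quality weights called 588, including 55.

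**Figure D1:**
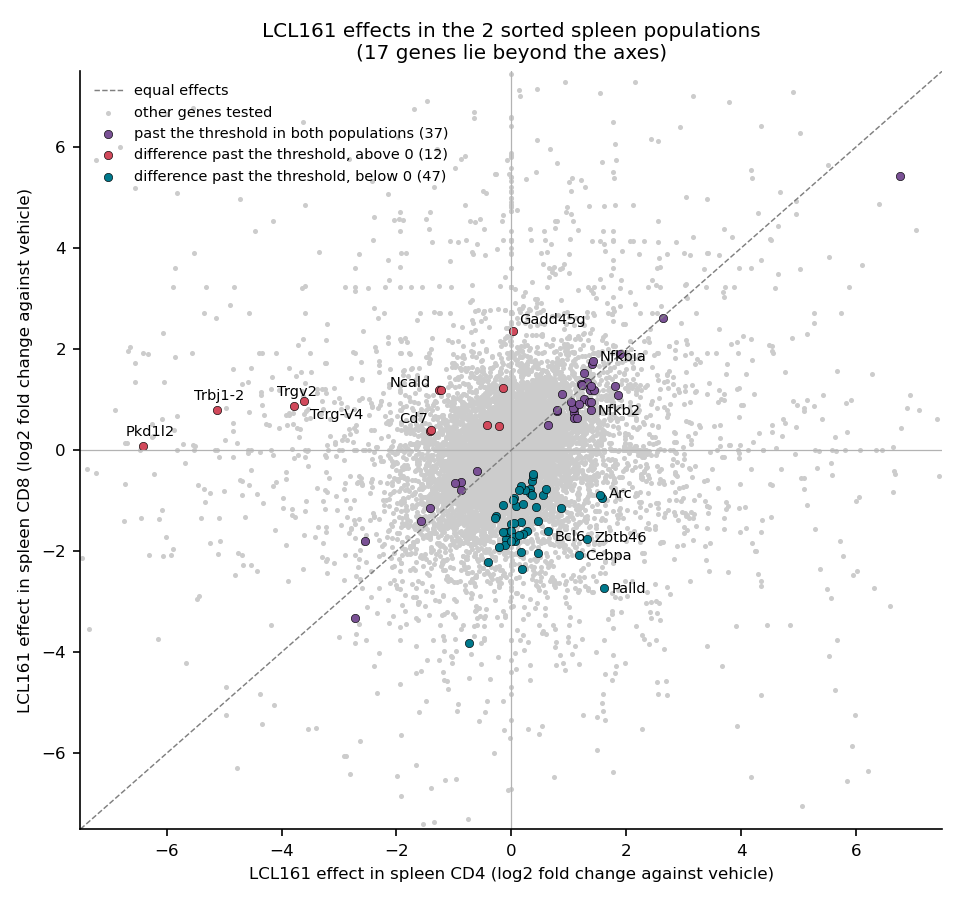
LCL161 effect in spleen CD4 (x axis) and in spleen CD8 (y axis), both as log2 fold change against vehicle, for each of 20174 genes tested; 17 lie beyond the axes. The 47 genes with a negative difference (teal) sit below the dashed line of equal effects and mostly near 0 on the CD4 axis, the 12 with a positive difference (red) sit above it, and the 37 genes changed in both populations (purple) lie along it.

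Several targets and subunits of NF-kB rose in both populations, and the size of their rise did not differ past the threshold. Of the genes tested, 37 passed the threshold in both CD8 and CD4, all 37 in the same direction, and none of the 37 had a difference of effects past the threshold by edgeR. The 37 were picked from these same data by passing in both populations, which favors genes with like effects. Nfkbia encodes IkB alpha, the inhibitor that NF-kB itself induces. It read 299, 271 and 288 CPM in CD4 vehicle, 955, 571 and 766 in CD4 LCL161, 209.8, 185 and 175 in CD8 vehicle and 626, 496 and 805 in CD8 LCL161. Every LCL161 library stood above every vehicle library of its population. Nfkbia rose by 1.76 ± 0.19 on the log2 scale in CD8 (edgeR adjusted p = 8.53e-05) and by 1.42 ± 0.19 in CD4 (adjusted p = 0.00546), with a difference of 0.34 ± 0.26 (adjusted p = 0.683).

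Nfkb2, the p100 precursor of the alternative pathway, read 182, 153 and 182 CPM in CD4 vehicle, 619.6, 307 and 427 in CD4 LCL161, 168, 145 and 172 in CD8 vehicle and 391, 205 and 243 in CD8 LCL161. The LCL161 libraries were higher in both populations without overlap, and replicate 1 was the highest in each. Its effect was 0.79 ± 0.24 in CD8 and 1.39 ± 0.24 in CD4, and the difference was -0.60 ± 0.34 (edgeR adjusted p = 0.508). Relb, the partner of p52, differed by -0.44 ± 0.26 (adjusted p = 0.527). Traf1, an adaptor of TNF receptors, rose by 0.63 ± 0.15 in CD8 and 1.15 ± 0.15 in CD4, a difference of -0.52 ± 0.22 (adjusted p = 0.334). Birc3, the transcript of the drug target cIAP2, rose by 0.78 ± 0.17 in CD8 and 0.79 ± 0.17 in CD4, and its difference was -0.01 ± 0.23. Icam1, a ligand of the integrin LFA-1, and Tnfrsf18, the costimulatory receptor GITR, also rose in both, with differences of -0.23 ± 0.31 and -0.13 ± 0.34. Socs1, an inhibitor of cytokine receptor signaling, differed by -0.40 ± 0.29. A difference that missed the threshold does not show equal effects in the populations.

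The promoters of Nfkbia and Nfkb2 are shown because both genes rose in both populations, and that of Gadd45g because its rise was called in CD8 alone. Each run is the 250 bases before a start site of the gene on its own strand, from RefSeq on GRCm38.p6, with matches to a kB motif in capitals. The motif, searched on both strands, was GGG, any 2 bases, then TTTCC.
Nfkbia, chr12:55492648-55492897, minus strand: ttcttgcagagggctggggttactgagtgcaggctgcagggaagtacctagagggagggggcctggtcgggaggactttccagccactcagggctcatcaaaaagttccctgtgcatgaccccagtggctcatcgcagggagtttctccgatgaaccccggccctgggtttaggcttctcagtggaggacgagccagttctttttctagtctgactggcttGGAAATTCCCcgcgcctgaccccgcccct
Nfkb2, chr19:46305680-46305929, plus strand: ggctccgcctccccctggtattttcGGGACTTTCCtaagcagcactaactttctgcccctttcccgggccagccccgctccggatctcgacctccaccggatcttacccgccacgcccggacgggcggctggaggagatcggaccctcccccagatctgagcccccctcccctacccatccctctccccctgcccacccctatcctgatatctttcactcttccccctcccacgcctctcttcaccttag
Gadd45g, chr13:51846425-51846674, plus strand: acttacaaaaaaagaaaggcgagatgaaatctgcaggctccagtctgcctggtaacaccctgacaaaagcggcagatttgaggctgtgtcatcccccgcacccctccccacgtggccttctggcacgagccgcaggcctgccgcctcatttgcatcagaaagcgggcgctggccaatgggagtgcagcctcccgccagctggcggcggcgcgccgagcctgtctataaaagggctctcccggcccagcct
The Nfkbia window and the Nfkb2 window shown held 1 match each. Of the Nfkb2 windows not shown, 1 held 1 match and another held 0, and the Gadd45g window held 0. Of 32851 RefSeq promoter windows of this length, 464 (1.41%) held the letters. By gene, they were found for 226 of 11763 genes tested that had a window (1.92%) and for 2 of 28 of those changed in both populations. Those 2 are Nfkbia and Nfkb2, so the windows shown do not stand for the other genes changed in both. The letters were found for 1 of 35 genes with a negative difference and for 0 of 4 with a positive one.

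In the list of 15 alternative NF-kB pathway genes 0 had a difference past the threshold by edgeR (1 above 0 and 1 below 0 at an unadjusted p under 0.05), and the median was -0.08. Map3k14, which encodes NIK, read 24.7, 41.3 and 39.2 CPM in CD4 vehicle, 46.5, 27.00 and 28.99 in CD4 LCL161, 46.9, 45.5 and 40.4 in CD8 vehicle and 22.6, 16.3 and 16.3 in CD8 LCL161. The CD8 LCL161 libraries were the lowest, and the CD4 groups overlapped. Map3k14 fell by 1.26 in CD8 (edgeR adjusted p = 0.00927), the CD4 effect was -0.04 ± 0.26, and the difference was -1.23 ± 0.38 (adjusted p = 0.163). Of 22 classical NF-kB subunits and targets 0 passed by edgeR (2 above 0 and 3 below 0 at an unadjusted p under 0.05), with a median of -0.15. Nfkb1, the p105 precursor of p50, was closest, with -0.78 ± 0.18 (adjusted p = 0.0666). Nfkbiz, an atypical nuclear IkB, rose by 3.03 ± 0.42 in CD8 against an effect of 1.78 ± 0.40 in CD4, with a difference of 1.26 ± 0.55 (adjusted p = 0.36). Birc2, the cIAP1 transcript, had effects of 0.03 in CD8 and -0.05 in CD4, neither past the threshold.

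Among 13 genes of TNF receptor costimulation tested, 0 had a difference past the threshold by edgeR, 3 reached an unadjusted p under 0.05 above 0 and 2 below 0. Tnfrsf4, the receptor OX40, read 116, 166 and 50.8 CPM in CD4 vehicle, 920.3, 422 and 347 in CD4 LCL161, 4.56, 4.45 and 7.52 in CD8 vehicle and 3.32, 3.29 and 7.07 in CD8 LCL161. The CD4 LCL161 libraries were above all CD4 vehicle libraries, and all 6 CD8 libraries were under 8 CPM. Tnfrsf4 rose by 2.34 ± 0.47 in CD4 (adjusted p = 0.0369), its CD8 effect was -0.27 ± 0.50, and the difference of -2.61 ± 0.68 did not pass (adjusted p = 0.0965). The list of 9 regulatory T cell genes summed to 555, 695 and 516 CPM in CD4 vehicle, 1596, 1212 and 767 in CD4 LCL161, 96.8, 113 and 89.2 in CD8 vehicle and 174, 148 and 187 in CD8 LCL161. The CD4 LCL161 libraries were above the CD4 vehicle ones, in the same order of replicates as Tnfrsf4, and 8 of the 9 genes had a CD4 effect above 0. Their part in the Tnfrsf4 result was not tested. The ligands ran the other way. Tnfsf9, the 4-1BB ligand, rose by 1.73 ± 0.38 in CD8 with 0.17 ± 0.36 in CD4, and Tnfsf4, the OX40 ligand, rose by 2.43 ± 0.62 in CD8 with -0.09 ± 0.58 in CD4, but neither difference passed (adjusted p = 0.211 and 0.211). The receptor 4-1BB, Tnfrsf9, rose by 2.52 ± 0.70 in CD8 with 0.24 ± 0.66 in CD4, and its difference of 2.28 ± 0.95 did not pass either (adjusted p = 0.335).

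The naming rule takes up to 15 genes with the largest differences in each direction and a group mean of at least 5 CPM, and 6 of them passed with a positive difference. Gadd45g, a stress-induced protein that activates the p38 pathway upstream of interferon gamma in T cells, was one of them. It lies at chr13:51846678-51848468 on GRCm38 and overlaps no annotated gene. Gadd45g read 14.4, 22.7 and 17.1 CPM in CD4 vehicle, 22.1, 15.6 and 17.95 in CD4 LCL161, 10.7, 17.8 and 11.3 in CD8 vehicle and 57.5, 60.9 and 85.6 in CD8 LCL161. The 3 CD8 LCL161 libraries were the highest of the 12, and the other 9 libraries overlapped with each other. Gadd45g rose by 2.36 ± 0.31 in CD8 (edgeR adjusted p = 0.000343), its CD4 effect was 0.04 ± 0.30, and the difference was 2.32 ± 0.43 (adjusted p = 0.0262).

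Gpr171, a G protein-coupled receptor of T cells, read 128, 98.4 and 133 CPM in CD4 vehicle, 94.1, 91.4 and 138 in CD4 LCL161, 94.3, 108 and 111 in CD8 vehicle and 199.8, 218 and 315 in CD8 LCL161. Again the 3 CD8 LCL161 libraries were the highest, and the remaining groups overlapped. The difference was 1.38 ± 0.25 (edgeR adjusted p = 0.026), from 1.23 ± 0.18 in CD8 and -0.15 ± 0.17 in CD4.

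Cd7, a surface protein of T and NK cells, reached its positive difference from the CD4 side. It read 294, 297 and 446 CPM in CD4 vehicle, 92.4, 141 and 158 in CD4 LCL161, 271, 397 and 239.9 in CD8 vehicle and 520.4, 281 and 382 in CD8 LCL161. The CD4 LCL161 libraries were below all other libraries, and the CD8 groups overlapped. Cd7 fell by 1.41 in CD4 (edgeR adjusted p = 0.0259), the CD8 effect was 0.38 ± 0.25, and the difference was 1.79 ± 0.36 (adjusted p = 0.0403). The opposite-strand transcript Gm11775 overlaps Cd7 and also passed, with 1.80 ± 0.36. The labels do not state whether counting used strand, so the reads of the pair cannot be told apart.

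Ncald, the calcium sensor neurocalcin delta, had effects of opposite sign in the populations. It read 45.3, 77.6 and 57.7 CPM in CD4 vehicle, 21.1, 13.9 and 42.6 in CD4 LCL161, 17.9, 36.8 and 36.05 in CD8 vehicle and 83.7, 47.4 and 76.9 in CD8 LCL161. The CD8 LCL161 libraries were above the CD8 vehicle ones, and the CD4 LCL161 libraries were below the CD4 vehicle ones. The difference of 2.41 ± 0.49 (edgeR adjusted p = 0.0451) came from 1.20 ± 0.35 in CD8 and -1.22 ± 0.35 in CD4, the second short of the threshold at adjusted p = 0.115. Gm28221, on the opposite strand within Ncald, passed as well with 2.44 ± 0.45, and the same limit on strand holds. Sla2, an adaptor that dampens antigen receptor signaling, and Tes, a LIM protein of focal adhesions, had smaller differences of 0.92 ± 0.17 and 0.69 ± 0.15 (adjusted p = 0.026 and 0.0499).

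**Figure D2:**
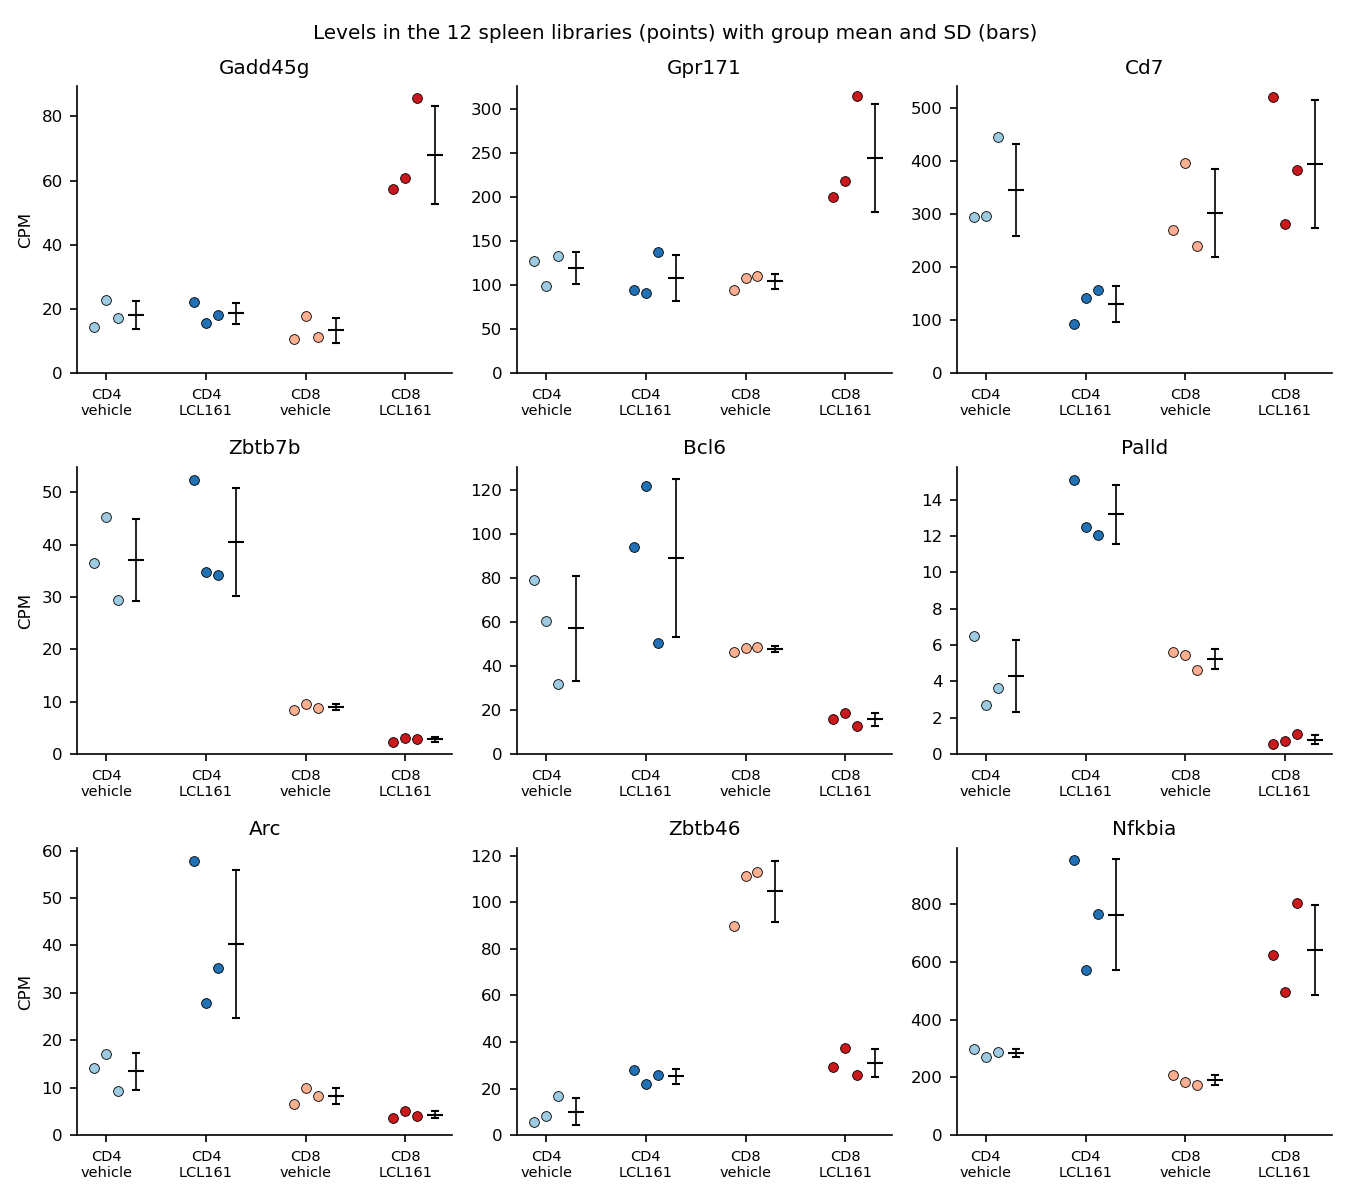
CPM of 9 genes in each spleen library (points), with the mean and SD of each group of 3 (bars); every axis starts at 0. Gadd45g and Gpr171 are high in CD8 LCL161 alone, Cd7 is low in CD4 LCL161, Zbtb7b, Bcl6, Palld, Arc and Zbtb46 are lower in CD8 LCL161 than in CD8 vehicle, and Nfkbia is higher with LCL161 in both populations.

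The remaining 4 genes with a positive difference are 3 segments of antigen receptors and Pkd1l2, named here after their values were seen. The receptor of gamma delta T cells, which these mice can still make, is assembled from gamma and delta chain genes. Trgv2, a gamma chain variable segment at chr13:19336573-19337167, read 85.9, 28.1 and 134 CPM in CD4 vehicle, 2.38, 6.91 and 8.76 in CD4 LCL161, 91.7, 90.6 and 84.03 in CD8 vehicle and 149, 136 and 204 in CD8 LCL161. The CD4 LCL161 libraries were below every other library. Trgv2 fell by 3.77 in CD4 (edgeR adjusted p = 0.0341), its CD8 effect was 0.88 ± 0.65, and the difference was 4.65 ± 0.97 (adjusted p = 0.0499).

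Tcrg-V4, another gamma variable segment, read 6.69, 5.25 and 41.98 CPM in CD4 vehicle, 1.00, 1.72 and 1.66 in CD4 LCL161, 31.03, 28.4 and 35.3 in CD8 vehicle and 50.4, 51.5 and 84.4 in CD8 LCL161. The CD4 vehicle libraries spread widely, with replicate 3 far above the other two, and all CD4 LCL161 libraries were below 2 CPM. Its difference was 4.58 ± 0.94 (edgeR adjusted p = 0.0451), and it overlaps Gm31887 on the opposite strand. Without CD4 vehicle replicate 3 no gene with a positive difference passed, and the difference was 4.10 for Trgv2 and 2.98 for Tcrg-V4. Trbj1-2, a joining segment of the beta chain, had a difference of 5.92 ± 0.99 (adjusted p = 0.026) with at most 6.48 CPM in any spleen library. Pkd1l2, of the polycystin family, had no counts in the 3 CD4 LCL161 libraries and at most 1.06 CPM elsewhere. With 3 counts per library in place of none, its difference was at least 2.04.

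All 12 gamma delta receptor genes had a difference above 0, as had 52.9% of all genes tested, with a median of 4.47 (4.33 with the member that had no counts in a group set at 3 counts per library) beside 0.04 over all genes, and 2 passed the threshold. The list medians were 0.72 in CD8 and -3.60 in CD4. Summed over the list, the level was 987, 291 and 1774 CPM in CD4 vehicle, 39.1, 143 and 85.1 in CD4 LCL161, 1433, 1419 and 1494 in CD8 vehicle and 2275, 2127 and 3046 in CD8 LCL161. LCL161 libraries were below all vehicle libraries in CD4 and above all vehicle libraries in CD8, and the CD4 vehicle libraries spanned 291 to 1774 CPM. Tcrg-C2, a gamma constant region, fell by 3.53 in CD4 (edgeR adjusted p = 0.0413), but its difference of 4.35 ± 0.99 did not pass (adjusted p = 0.065). Trdc, the delta constant region, had 4.61 ± 1.41 (adjusted p = 0.163). In these bulk samples, fewer cells of a type and less RNA per cell cannot be told apart.

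Markers of plasmacytoid dendritic cells had a median effect of -1.02 in CD4, beside the lower gamma delta genes there. Their difference was above 0 for 10 of 10 genes, as it was for 52.9% of all genes tested, with a median of 0.93. By edgeR 0 passed, while 1 reached an unadjusted p under 0.05 above 0, as did 5.54% of all genes tested. The sum over the list was 3766, 1006 and 2945 CPM in CD4 vehicle, 851, 1205 and 1525 in CD4 LCL161, 795, 774 and 718 in CD8 vehicle and 772, 736 and 642 in CD8 LCL161. Vehicle replicates 1 and 3 were the highest CD4 libraries, and vehicle replicate 2 lay within the LCL161 range. Siglech, a defining surface receptor of these cells, read 952, 194 and 639.9 CPM in CD4 vehicle and 80.4, 209.6 and 339 in CD4 LCL161. Their part in the result was not tested.

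The naming rule adds the 9 genes of smallest p to the 6 that passed, and none of these 9 passed. Gzmb, the protease granzyme B, read 56.6, 46.3 and 224 CPM in CD4 vehicle, 61.8, 34.04 and 32.2 in CD4 LCL161, 50.96, 91.5 and 108 in CD8 vehicle and 453, 310.1 and 897 in CD8 LCL161. The CD8 LCL161 libraries were above all others, CD8 vehicle did not overlap them, and CD4 vehicle replicate 3 was high within its group. Gzmb rose by 2.73 ± 0.66 in CD8 (edgeR adjusted p = 0.0181) with -1.35 ± 0.64 in CD4, and the difference of 4.08 ± 0.92 had an adjusted p of 0.0634.

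Ccl3, a chemokine of activated effector cells, read 19.01, 3.81 and 76.3 CPM in CD4 vehicle, 8.63, 1.27 and 6.79 in CD4 LCL161, 7.15, 11.2 and 7.62 in CD8 vehicle and 54.2, 35.4 and 43.1 in CD8 LCL161, and the CD8 groups did not overlap while the CD4 groups did. Its difference was 4.93 ± 1.10 (edgeR adjusted p = 0.0615). Fasl, the ligand of the death receptor Fas, rose by 1.60 ± 0.45 in CD8, with a difference of 2.74 ± 0.63 (adjusted p = 0.065). Ctsw, the cathepsin of cytotoxic lymphocytes, rose by 0.79 ± 0.20 in CD8, with a difference of 1.28 ± 0.29 (adjusted p = 0.065). Spp1, the cytokine osteopontin, differed by 4.42 ± 1.01 and Klrb1f, an NK receptor family member, by 2.90 ± 0.63 (adjusted p = 0.065 and 0.0567). Tmem106b, a lysosomal membrane protein, had 1.28 ± 0.28 (adjusted p = 0.0537).

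Of 17 cytotoxic effector genes 14 had a difference above 0, as had 52.9% of all genes tested, with a median of 1.72. By edgeR 0 passed, while 9 reached an unadjusted p under 0.05 above 0, as did 5.54% of all genes tested. The list medians were 0.95 in CD8 and -0.49 in CD4, where 14 of the 17 had an effect below 0. The list sum was 2506, 2185 and 4002 CPM in CD4 vehicle, 3381, 2383 and 2829.7 in CD4 LCL161, 3197, 4009 and 4325 in CD8 vehicle and 6047, 5615 and 9121 in CD8 LCL161. The CD8 LCL161 libraries were above all 9 others, with replicate 3 the highest, and the CD4 groups overlapped. Of 15 effector cytokines and chemokines tested 13 lay above 0, with a median of 1.66 and 0 calls by edgeR (6 at an unadjusted p under 0.05). Klrd1, the CD94 receptor chain, and Ccl4 had 2.002 ± 0.48 and 3.44 ± 1.15 (adjusted p = 0.0765 and 0.211). Ifng, the effector cytokine, rose by 2.63 ± 0.67 in CD8 with 1.31 ± 0.64 in CD4, and its difference was 1.32 ± 0.90 (adjusted p = 0.618).

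**Figure D3:**
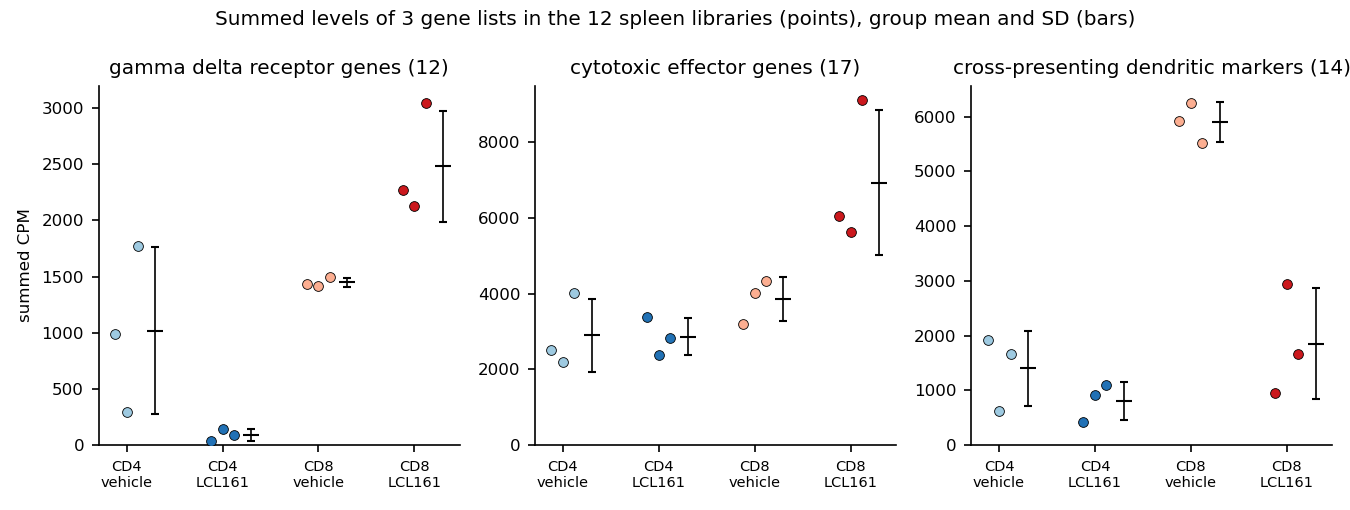
Summed CPM of 3 gene lists in each spleen library (points), with the mean and SD of each group of 3 (bars), on axes from 0. Gamma delta receptor genes are lowest in CD4 LCL161 (39.1 to 143.1 CPM), cytotoxic effector genes highest in CD8 LCL161 (5615 to 9121 CPM), and cross-presenting dendritic markers highest in CD8 vehicle (5519 to 6257 CPM).

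Of the transcription factors with a negative difference, Zbtb7b, known as ThPOK, directs CD4 lineage choice and represses CD8 lineage genes. It lies at chr3:89377644-89394776 on the minus strand. Zbtb7b read 36.5, 45.2 and 29.5 CPM in CD4 vehicle, 52.3, 34.8 and 34.2 in CD4 LCL161, 8.40, 9.51 and 8.88 in CD8 vehicle and 2.31, 3.07 and 2.94 in CD8 LCL161. It was low in CD8 already with vehicle, every CD8 LCL161 library was below every CD8 vehicle library, and the CD4 groups overlapped. Zbtb7b fell by 1.69 in CD8 (edgeR adjusted p = 0.000247), its CD4 effect was 0.13 ± 0.20, and the difference was -1.81 ± 0.29 (adjusted p = 0.026), past the threshold in 9 of the 12 fits that left out 1 library.

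Bcl6, the repressor that follicular helper T cells and germinal center B cells depend on, read 79.00, 60.5 and 31.8 CPM in CD4 vehicle, 93.96, 122 and 50.6 in CD4 LCL161, 46.1, 48.2 and 48.6 in CD8 vehicle and 15.9, 18.5 and 12.7 in CD8 LCL161. The CD8 vehicle libraries were tightly grouped and the CD8 LCL161 libraries were below them, while CD4 libraries overlapped over a wide range. The difference was -2.24 ± 0.42 (edgeR adjusted p = 0.0283), with a fall of 1.60 in CD8 and 0.64 ± 0.29 in CD4.

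Cebpa, a myeloid transcription factor, read 34.1, 39.2 and 15.2 CPM in CD4 vehicle, 98.8, 55.7 and 44.9 in CD4 LCL161, 4.96, 6.91 and 4.85 in CD8 vehicle and 1.06, 1.86 and 1.08 in CD8 LCL161. CD8 LCL161 was below CD8 vehicle in all libraries, and CD4 LCL161 was above CD4 vehicle in all libraries. Its difference was -3.24 ± 0.68 (edgeR adjusted p = 0.0499). Lmo4, a LIM-only cofactor, fell by 1.14 in CD8 with 0.86 ± 0.28 in CD4, a difference of -1.9997 ± 0.40 (adjusted p = 0.041). The zinc finger gene Zfp703 had -1.87 ± 0.38. Etv6, an ETS repressor, and Pbx2, a homeobox factor, fall outside the naming rule and were picked out after their values were seen, with -1.54 ± 0.30 and -1.005 ± 0.21 (adjusted p = 0.0386 and 0.0451).

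Palld, the actin-bundling protein palladin, had the largest negative difference among the named genes. It read 6.50, 2.72 and 3.64 CPM in CD4 vehicle, 15.1, 12.5 and 12.04 in CD4 LCL161, 5.63, 5.46 and 4.61 in CD8 vehicle and 0.578, 0.712 and 1.08 in CD8 LCL161. All CD8 LCL161 libraries were at or under 1.08 CPM, below every CD8 vehicle library, and all CD4 LCL161 libraries were above every CD4 vehicle library. Palld fell by 2.72 in CD8 (edgeR adjusted p = 0.00882), the CD4 effect of 1.62 ± 0.52 missed the threshold (adjusted p = 0.159), and the difference was -4.34 ± 0.78 (adjusted p = 0.026).

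Arc, an immediate early gene that shapes the actin skeleton, was the gene whose negative difference came with a called CD4 effect. It read 14.1, 17.04 and 9.24 CPM in CD4 vehicle, 57.8, 27.8 and 35.2 in CD4 LCL161, 6.53, 9.82 and 8.25 in CD8 vehicle and 3.61, 5.15 and 4.07 in CD8 LCL161. CD4 LCL161 stood above CD4 vehicle and CD8 LCL161 below CD8 vehicle without overlap. Arc rose by 1.58 ± 0.33 in CD4 (edgeR adjusted p = 0.04), its CD8 effect was -0.94 ± 0.33 (adjusted p = 0.0854), and the difference was -2.52 ± 0.47 (adjusted p = 0.0263). Arrb1, the receptor adaptor beta-arrestin 1, fell by 2.35 in CD8 with 0.19 ± 0.31 in CD4. Trio, a guanine nucleotide exchange factor, fell by 1.67 with 0.21 ± 0.27 in CD4. Their differences were -2.55 ± 0.45 and -1.88 ± 0.38 (adjusted p = 0.026 and 0.0451).

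Of the enzymes, Lipe, the hormone-sensitive lipase, read 13.9, 10.7 and 12.99 CPM in CD4 vehicle, 17.8, 15.5 and 12.2 in CD4 LCL161, 29.1, 35.6 and 34.3 in CD8 vehicle and 9.87, 13.9 and 8.98 in CD8 LCL161, with the CD8 vehicle libraries above the other 9. It fell by 1.59 in CD8, and the difference was -1.87 ± 0.32 (edgeR adjusted p = 0.026). Nme4, a mitochondrial nucleoside diphosphate kinase, read 1.36, 1.29 and 1.27 CPM in CD4 vehicle, 2.56, 4.26 and 4.69 in CD4 LCL161, 6.48, 6.21 and 6.74 in CD8 vehicle and 2.17, 4.93 and 3.39 in CD8 LCL161. It was higher with LCL161 in CD4 and lower with LCL161 in CD8 without overlap, although neither effect passed alone (adjusted p = 0.0534 in CD4 and 0.1 in CD8), and the difference was -2.44 ± 0.48 (adjusted p = 0.0386). Hs6st1, a heparan sulfate sulfotransferase, Tram2, of the translocon, and Fam131a had -1.85 ± 0.32, -2.18 ± 0.45 and -2.50 ± 0.48.

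Outside the naming rule, and chosen after their values were seen, several membrane traffic genes passed with a negative difference. Mtmr4, a phosphatase of endosomal phosphoinositides, had the smallest p-value of all genes. It read 88.3, 74.4 and 63.3 CPM in CD4 vehicle, 56.6, 72.7 and 65.99 in CD4 LCL161, 238, 214 and 223 in CD8 vehicle and 70.9, 66.6 and 40.98 in CD8 LCL161. The CD8 vehicle libraries were all at or above 214.1 CPM, and the other 9 libraries lay between 40.98 and 88.3. Mtmr4 fell by 1.92 in CD8, and its difference was -1.71 ± 0.25 (edgeR adjusted p = 0.0255), past the threshold in 10 of the 12 fits without 1 library. Rab5b, a GTPase of early endosomes, and Gabarap, of the autophagy machinery, had -1.19 ± 0.21 and -0.86 ± 0.16. Rab43, a GTPase of the Golgi, had -1.77 ± 0.29, and overlaps the also called Gm45140 on the same strand, so that their reads may be shared. Tgfb1, the cytokine TGF beta 1, fell by 1.06 in CD8 with 0.20 ± 0.16 in CD4, a difference of -1.26 ± 0.23 (adjusted p = 0.0262), and the methyltransferase gene Carm1 had -0.90 ± 0.17.

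Of the 14 cross-presenting dendritic markers 0 had a difference above 0, against 52.9% of all genes tested, and the median was -1.17. By edgeR 1 of the 14 passed, beside 0.292% of all genes tested. That gene was Zbtb46, a transcription factor of conventional dendritic cells, which read 5.43, 8.12 and 16.7 CPM in CD4 vehicle, 27.9, 21.7 and 26.01 in CD4 LCL161, 89.8, 111 and 113 in CD8 vehicle and 29.4, 37.5 and 25.6 in CD8 LCL161. CD8 vehicle was far above the other 3 groups, and the CD4 LCL161 libraries were above the CD4 vehicle ones. Zbtb46 fell by 1.76 in CD8 (edgeR adjusted p = 0.0178), and its difference was -3.09 ± 0.61 (adjusted p = 0.0386). Summed over the list, the level was 1911, 627 and 1665 CPM in CD4 vehicle, 418, 909.6 and 1092 in CD4 LCL161, 5918, 6257 and 5519 in CD8 vehicle and 941, 2949.9 and 1671 in CD8 LCL161. All CD8 vehicle libraries were above all CD8 LCL161 libraries, and the CD4 groups overlapped. The CD8 effect was below 0 for all 14 markers (median -1.64), and 6 passed as lower by edgeR, beside 4.18% of all genes tested. The CD4 effect was below 0 for 8 (median -0.48), and 1 passed as lower, beside 0.193% of all genes tested.

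Xcr1, the chemokine receptor that defines these cells, read 3.35, 4.76 and 2.96 CPM in CD4 vehicle, 3.33, 1.31 and 7.66 in CD4 LCL161, 348, 364 and 327 in CD8 vehicle and 18.5, 126 and 68.8 in CD8 LCL161, so it was not at 0 in any library and was lowest in the CD4 ones. It fell by 2.28 in CD8 (edgeR adjusted p = 0.0212), and its difference was -2.43 ± 0.83 (adjusted p = 0.225). Wdfy4, needed for cross-presentation, fell by 3.32 in CD8 with -0.47 ± 0.52 in CD4, a difference of -2.85 ± 0.75 (adjusted p = 0.101). Ly75, the endocytic receptor DEC-205, had -1.38 ± 0.35 (adjusted p = 0.0879). With the levels of the dendritic, B and neutrophil lists as covariates, 453 genes passed, among them 58 of the 59. These covariates were fitted over all 24 libraries, tumor included, and the dendritic list holds the called gene Zbtb46. The part of dendritic cells in the called differences was not tested.

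Of 13 MHC class II presentation genes 12 lay below 0, with a median of -0.70 and 0 calls by edgeR (2 at an unadjusted p under 0.05). Ciita, their master regulator, fell by 1.67 in CD8 (adjusted p = 0.0191) with a difference of -1.33 ± 0.57 (adjusted p = 0.347), and the costimulatory ligand Cd86 had -1.36 ± 0.57. Proliferation genes lay on the other side. Of 18 mitosis genes 17 were above 0 with a median of 0.66, and of 21 DNA replication genes 16 with a median of 0.45. Of all genes tested, 52.9% were above 0. Both lists had 0 calls by edgeR (1 and 3 genes above 0 at an unadjusted p under 0.05). In CD4 the effect was above 0 for 17 mitosis genes (median 0.37) and 19 DNA replication genes (median 0.45). There 0 genes of either list passed by edgeR, and the sums of the vehicle and LCL161 libraries overlapped. The CD8 medians were 1.09 and 0.78, and 5 mitosis and 9 DNA replication genes passed as higher. Mitosis sums were 906, 1232 and 963 CPM in CD8 vehicle and 2463, 1261 and 1794 in CD8 LCL161. Pcna, the sliding clamp of replication, rose by 0.78 ± 0.17 in CD8 with 0.14 ± 0.17 in CD4.

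Other genes of note came close to or stayed away from the threshold. Hk2, a hexokinase of glycolysis, fell by 1.59 in CD8, with a difference of -2.43 ± 0.54 (edgeR adjusted p = 0.0605). Per1, a clock gene that glucocorticoids induce, rose by 1.58 ± 0.29 in CD4 with -0.11 ± 0.29 in CD8, a difference of -1.68 ± 0.41 (adjusted p = 0.0788). Cd69, the early activation marker, rose by 2.02 ± 0.23 in CD8 and had 0.95 ± 0.23 in CD4, a difference of 1.07 ± 0.32 (adjusted p = 0.154). Bcl2l11, the pro-apoptotic protein BIM, rose by 1.07 ± 0.32 in CD8 with -0.47 ± 0.32 in CD4 and a difference of 1.54 ± 0.45 (adjusted p = 0.144). The mitochondrial gene mt-Co1 rose by 0.63 ± 0.10 in CD8, with a difference of 0.61 ± 0.15 (adjusted p = 0.0743). Mitochondrial transcripts as a whole made up 1.46 to 1.52% of counts in CD8 vehicle, 2.10 to 2.37% in CD8 LCL161, 1.82 to 1.91% in CD4 vehicle and 1.93 to 2.38% in CD4 LCL161.

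In all, 5 of the 559 tested genes of the 41 lists passed (0.894%), in 3 lists, beside 0.292% of all genes tested. The lists were chosen with earlier results of these data known. The erythroid and platelet list had a median of -2.71, and its sum was 3818, 261 and 2353 CPM in CD4 vehicle, 222, 509.9 and 11811 in CD4 LCL161, 656, 469.7 and 1693 in CD8 vehicle and 80.1, 512 and 259.8 in CD8 LCL161, so CD4 LCL161 replicate 3 was more than 3 times as high as any other library. The plasma list had a median of -1.59, with 10 of 11 genes below 0, where 52.9% of all genes tested were above 0. The neutrophil list had -0.73, and its CD4 sums ran from 84.1 to 791 CPM with vehicle and from 298.6 to 3047 with LCL161. These 3 lists held 0 calls by edgeR, with 1, 2 and 0 genes below 0 at an unadjusted p under 0.05. Of these lists only the neutrophil one was among the covariates, and the part of these 3 lists in the results was not tested.

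**Figure D4:**
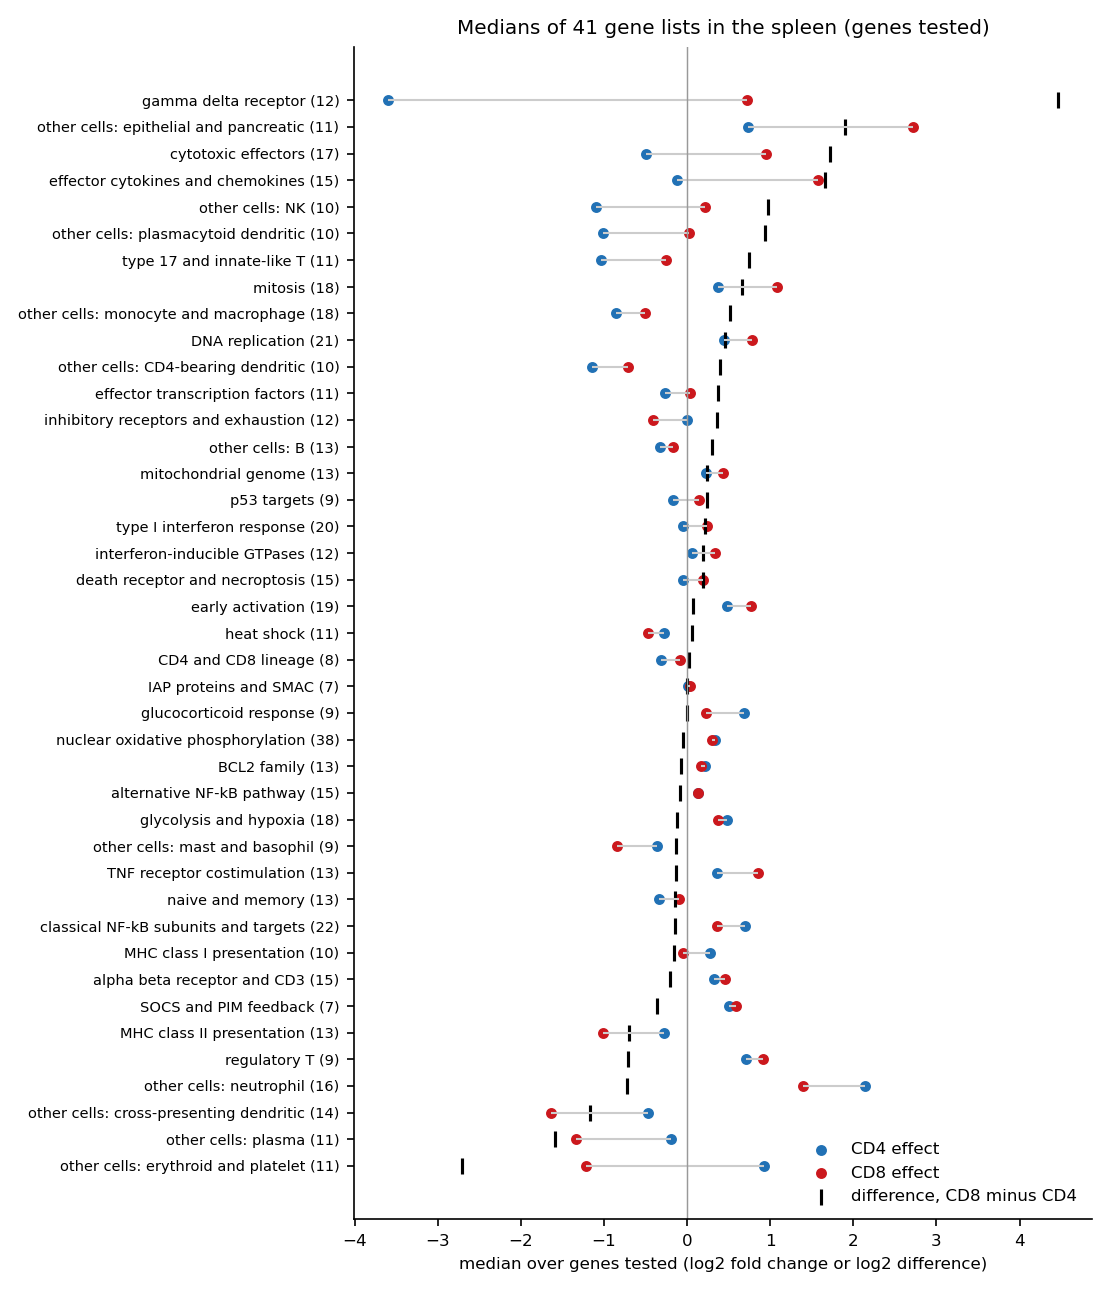
Median log2 LCL161 effect in spleen CD4 (blue) and spleen CD8 (red), and median difference of effects (black bar), for 41 gene lists, with the number of genes tested in brackets. Gamma delta receptor genes have the largest positive median difference (4.47) and the erythroid and platelet list the lowest (-2.71); the NF-kB lists lie near 0.

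Median transcript length differed between the called genes above and below 0, which was not tested. Of the 12 above 0, 5 were receptor segments or other kinds that the naming rule leaves out, and of the 47 below 0, 3 were. The longest annotated transcript had a median of 1026.5 bases over the 12 genes above 0, 3933 bases over the 47 below 0 and 2566 bases over all genes tested, with GC content medians of 48.4%, 54.0% and 49.5%. In CD8 the same was seen for all genes changed, with a median of 1933.5 bases for those higher with LCL161 and 4361 bases for those lower. With an offset for transcript length and GC content, 59 genes passed, 12 above 0 and 47 below 0, of which 42 were among the 59.

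In the tumor the same difference of effects, formed from 12 other libraries, passed the threshold for 0 genes by edgeR (0.0% of genes tested), with 1116 at an unadjusted p under 0.05 (5.53%), 41 genes by DESeq2 and 0 by limma's voom with sample quality weights. Of the 59 spleen genes, 26 had the same sign in the tumor, 8 of the 12 positive ones and 18 of the 47 negative ones, where 51.9% of all genes tested had a tumor difference above 0. The median tumor difference was 0.76 over the 12 and 0.05 over the 47, beside 0.02 over all genes tested. Cd7 and Trgv2 kept their sign, with tumor differences of 1.10 ± 0.35 (unadjusted p = 0.0061, edgeR adjusted p = 0.84) and 2.28 ± 0.92 (unadjusted p = 0.0231, adjusted p = 0.874).

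The spleen difference itself departed from the tumor difference for 3 genes (0.0149% of genes tested), all lower in spleen. Nme4 read 3.71 ± 1.36 CPM (mean ± SD, n = 3) in tumor CD4 vehicle, 1.14 ± 0.488 in CD4 LCL161, 1.62 ± 0.378 in CD8 vehicle and 1.86 ± 0.205 in CD8 LCL161. Its mean was lower with LCL161 in tumor CD4, where in spleen CD4 it had been higher. The tumor difference was 1.89 ± 0.49, and spleen minus tumor was -4.33 ± 0.68 (edgeR adjusted p = 0.0315). Lipe had 1.09 ± 0.33 in the tumor and -2.96 ± 0.46 for spleen minus tumor (adjusted p = 0.0315). Vwf, the von Willebrand factor of endothelium and platelets, named here after its value was seen, differed by -6.88 ± 1.06 (adjusted p = 0.0315), but its group means in the tumor ran from 0.0313 to 1.10 CPM.

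**Figure D5:**
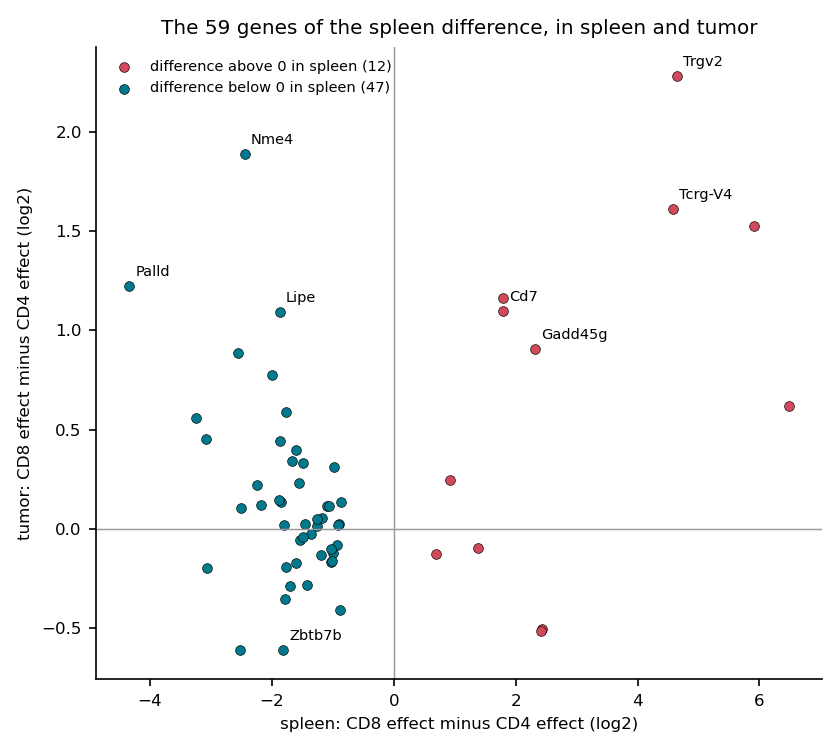
Difference of LCL161 effects (CD8 minus CD4, log2) in spleen (x axis) and tumor (y axis) for the 59 genes that passed in spleen, 12 above 0 (red) and 47 below 0 (teal). The receptor segments and Cd7 lie above 0 in both tissues, while the 47 scatter around 0 in the tumor with Nme4 the highest at 1.89.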

How the data were processed

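RNA was measured in 24 libraries, in 8 groups of 3 made by tissue, sorted population and treatment, and groups were taken from the labels. Per the submitters' processing notes, cutadapt removed adapters and reads were mapped with STAR 2.7.3a on GRCm38. The file the authors deposited is a table of expected counts per gene, 55025 symbols by 24 columns. The labels and headers name no counting tool, annotation or strand setting. Values other than 0 were fractional in 52.7% of cases, and all were rounded before testing. All 24 columns were matched to samples. Library totals ran from 15.5 to 25.1 × 1e6 counts. Replicates differed beyond counting error in all 12 spleen pairs (chi-square per gene 15.34 to 134.9 over genes with at least 20 counts), so none were merged.

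Tests used edgeR 4.0.16 under R 4.3.3. The filter filterByExpr (minimum count 10) left 20174 genes, and TMM factors ran from 0.939 to 1.05. All 24 libraries entered a robust quasi-likelihood fit with 1 coefficient per group (16 residual degrees of freedom), so that the groups shared an estimate of the spread. P-values of each of 5 contrasts were adjusted by Benjamini and Hochberg, with a threshold of 0.05, and the tests are two-sided. The SE is the log2 difference divided by the square root of F. A group without counts was set at 3 counts per library for bounds, which cover counting error only. The members and lists were chosen with earlier results of these data known. Named genes are the 15 largest differences past the threshold in each direction with a group mean of at least 5 CPM, leaving out predicted genes, pseudogenes, receptor segments and mitochondrial genes, and filled up by smallest p where fewer passed. Up to 4 genes of smallest p per list and a panel of 20 genes extend the choice, of which the text prints part, and 1 gene the rule names is not reported here. Coordinates are from GENCODE M21, and promoters from RefSeq on GRCm38.p6.

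Alternatives were other scalings, filters, DESeq2 1.42.0, voom with sample quality weights in limma 3.58.1, the spleen libraries alone, a replicate block, a minimum fold and each library left out. The length and GC offset, the block within tissue and treatment and the marker covariates were run as well, the offset chosen after seeing the data. In simulated data for the spleen difference with 19684 genes, edgeR recovered 16% of 100 genes changed 2-fold and 75% of 100 changed 4-fold, and called 8 that were not changed. The changed genes were drawn from those with a mean of at least 5 CPM, so the recovery of genes at lower levels was not simulated. All other genes were given no LCL161 effect in spleen, and the spread of each gene was the one estimated from these data. Figures were drawn with matplotlib 3.10.9 in Python 3.11.15, from tables built with pandas 2.3.3 and numpy 2.4.6.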

Additional observations from a re-analysis of the deposited data

Results flagged for a closer look

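The LCL161 effect differed between spleen CD8 and spleen CD4 for 59 genes by edgeR's test of the difference itself, and the spleen difference departed from the tumor difference for 3. Log2 differences of effects are given in brackets. Above 0 were Gadd45g (2.32), Gpr171 (1.38), Cd7 (1.79), Ncald (2.41), Sla2 (0.92) and Tes (0.69), the receptor segments Trgv2 (4.65), Tcrg-V4 (4.58) and Trbj1-2 (5.92), and the overlapping transcripts Gm11775 (1.80) and Gm28221 (2.44). Pkd1l2 had a fitted value of 6.49, which depends on the prior count because CD4 LCL161 had no counts.

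Below 0 were the transcription factors Zbtb7b (-1.81), Bcl6 (-2.24), Cebpa (-3.24), Zbtb46 (-3.09), Lmo4 (-1.9997), Zfp703 (-1.87), Etv6 (-1.54) and Pbx2 (-1.005). Also below 0 were Palld (-4.34), Arc (-2.52), Arrb1 (-2.55) and Trio (-1.88). Further genes below 0 were Lipe (-1.87), Nme4 (-2.44), Hs6st1 (-1.85), Tram2 (-2.18), Fam131a (-2.50) and Carm1 (-0.90). Membrane traffic genes, the cytokine Tgfb1 and a transcript overlapping Rab43 were Mtmr4 (-1.71), Rab5b (-1.19), Rab43 (-1.77), Gabarap (-0.86), Tgfb1 (-1.26) and Gm45140 (-1.48). For spleen minus tumor the log2 values were -2.96 for Lipe, -4.33 for Nme4 and -6.88 for Vwf.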

How the results depend on the processing

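The count of 59 genes became 34 without scaling (9 above 0, 25 below), 34 without a filter on low counts, 134 with a filter of 5 CPM in 3 libraries (29 and 105), 511 by DESeq2, 588 by voom with sample quality weights (called voom here), 3 with the 12 spleen libraries alone, and 453 with marker covariates. RLE scaling gave 48 and a minimum log2 difference of 1 gave 51. Leaving out 1 library gave 0 to 314. With 3 replicates, and 16% of 2-fold differences recovered in simulated data, small differences are often missed. With vehicle, same-numbered CD4 and CD8 spleen libraries correlated at 0.0409, 0.0793 and 0.0848. Differently numbered ones correlated at -0.0642 to -0.0138. With LCL161 the same-numbered values were 0.0166, 0.06 and -0.0174, and the others ran from -0.0902 to 0.0825. Whether the numbers pair libraries of the same mouse cannot be told from the labels or these values. The replicate block gave 60 genes, 48 of them among the 59, and a replicate block within tissue and treatment gave 21, with 15 among the 59, so that Arc, Arrb1, Bcl6, Cebpa, Cd7, Carm1, Etv6 and Gabarap, among others, lost the threshold. Fasl gained it in both (adjusted p = 0.0332 and 0.0261), from 0.065. The CD8 count of 1670 became 2589 by DESeq2, 7141 by voom, 747 with spleen alone and 246 to 1702 without 1 library. The CD4 count of 87 became 648, 2 and 17 in those fits, 56 with the replicate block and 0 to 220 without 1 library. The tumor count was 41 by DESeq2. The 3 spleen minus tumor genes became 6 without scaling, 198 by DESeq2 and 27 by voom.

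Of the 36 called genes named, 0 reversed in 863 values and 389 lost the threshold. The 44 others gained the threshold in 95 of 1056 values, 21 of these by DESeq2, 17 by voom, 17 with marker covariates and 13 with the filter of 5 CPM. Of the 44, 5 reversed, and the cause was not tested. Birc2 read -0.066 by voom, -0.15 with the length and GC offset, and -0.18 (without CD4 LCL161 replicate 1) to 0.28 without 1 library, with -0.02 without CD8 vehicle replicate 3. Birc3 read 0.034 without scaling, 0.0047 with the block within tissue and treatment, 0.18 with covariates and -0.14 to 0.11 without 1 library (above 0 without replicate 2 of CD4 vehicle, 0.0026, CD4 LCL161, 0.07, or CD8 vehicle, 0.11, or replicate 1 of CD8 LCL161, 0.04). Icam1 read -0.46 to 0.014 without 1 library, the last without CD4 LCL161 replicate 3. Tnfrsf18 read 0.14 by voom and without CD4 LCL161 replicate 1, 0.0049 without CD8 LCL161 replicate 1, and -0.44 at the lowest without 1 library. Trac read -1.06 to 0.012 without 1 library, above 0 without CD4 vehicle replicate 3 (0.012) or CD4 LCL161 replicate 1 (0.0017).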
